A study of Mus musculus with 8 samples.

Results

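MYC and the genes of ribosome biogenesis were followed as 38 listed mouse genes in RNA-seq libraries of intestinal tumors and of small intestine. The list holds 6 genes of the MYC network, which are the MYC family members Myc, Mycn and Mycl, their dimer partner Max, and the antagonists Mxd1 and Mxi1, and 32 genes whose products make or assemble ribosomes in the nucleolus. The members were matched by symbol, and 38 of 38 were found in both deposited tables and passed the filter on low counts, among 43629 genes listed and 17029 genes tested.

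The 8 libraries are polyadenylated RNA from mice of the strain C57B6/129 with the genotype APC mutant and no treatment, 4 from tumor (C1 to C4) and 4 from small intestine (M1 to M4). The tumors and the small intestine used as reference therefore share the Apc mutation, and no library is labelled as receiving the high-fructose corn syrup of the study's title. The labels give neither the Apc allele, the age or sex of the mice, the segment of intestine, nor whether tumor and intestine came from the same animals or were pooled. Since nothing says that the libraries of a group came from separate mice, p-values measure the spread between these libraries, which may be technical. The libraries held 53856561 to 84433335 counted reads, and levels are given as CPM (counts scaled to a common library size); 3 counts corresponded to 0.0331 to 0.0630 CPM.

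MYC proteins are transcription factors that bind DNA as dimers with MAX, often at the sequence CACGTG, and MXD1 and MXI1 compete for MAX and repress such genes. In the nucleolus, RNA polymerase I transcribes the ribosomal RNA precursor, small nucleolar ribonucleoproteins (snoRNPs) guide its modification, and assembly factors fold and cut it into the small and the large ribosomal subunit. Myc is a classical target of Wnt signalling in the intestinal epithelium, where APC restrains that pathway, and many genes of ribosome production are textbook targets of MYC.

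The sequence that MYC and MAX recognise was searched for in the start regions of the members, and the matches are printed because this is the sequence the MYC network is known for. RefSeq windows of 250 bases before to 50 after a transcript start (mouse build GRCm38.p6) were at hand for 32 of the 38 members. Of their 42 windows, 19 were set on the outer 5′ end of the RefSeq gene and the others on starts inside it. Those of Bop1, Fbl, Myc, Npm1, Rrp12 and Rrs1 were not used here. CACGTG, which reads the same on both strands, occurred in windows of 7 of the 32 members (21.9%), at 8 positions. The share was 8.91% over 17492 protein-coding genes and 8.09% over all 27025 genes with windows. Over 86 other ribosome biogenesis factors, from a wider list treated below, it was 17.4%, and over 57 ribosomal protein genes 10.5%. Each match is shown within 30 bases on the gene's strand, 5′ to 3′, with CACGTG in capitals; it lies at chr12:76962234-76962263 (minus strand) for Max, chr11:72441347-72441376 (plus) for Mybbp1a, chr6:125131811-125131840 (plus) for Nop2, chr11:3963965-3963994 (plus) for Pes1, chr16:13780472-13780501 and chr16:13780639-13780668 (plus) for Rrn3, chr10:88826765-88826794 (minus) for Utp20 and chr17:71616220-71616249 (plus) for Wdr43.
Max: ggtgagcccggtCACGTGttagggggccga
Mybbp1a: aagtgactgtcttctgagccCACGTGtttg
Nop2: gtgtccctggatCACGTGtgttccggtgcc
Pes1: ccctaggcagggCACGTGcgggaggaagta
Rrn3, distal: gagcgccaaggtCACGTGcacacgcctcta
Rrn3, proximal: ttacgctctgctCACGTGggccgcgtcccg
Utp20: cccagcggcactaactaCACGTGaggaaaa
Wdr43: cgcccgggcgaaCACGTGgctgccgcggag

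Distances are from the transcript start of the window, which was the outer end of the RefSeq gene in Mybbp1a, Nop2, Pes1, Rrn3 and Utp20, and lay 75 bases inside it in Max and 37 in Wdr43. The first base of the match was 3 bases upstream of the start in Max, 60 upstream in Nop2, and 215 and 48 upstream in Rrn3. It lay downstream in the others, at base 3 in Pes1, 18 in Wdr43, 38 in Utp20 and 41 in Mybbp1a. The start itself is base 1 in this downstream count. Rrn3 was the one member with more than 1 match. The 250 bases before the start of Nop2 (chr6:125131633-125131882, plus strand) and Rrn3 (chr16:13780449-13780698, plus strand) show the matches in their surroundings.
Nop2: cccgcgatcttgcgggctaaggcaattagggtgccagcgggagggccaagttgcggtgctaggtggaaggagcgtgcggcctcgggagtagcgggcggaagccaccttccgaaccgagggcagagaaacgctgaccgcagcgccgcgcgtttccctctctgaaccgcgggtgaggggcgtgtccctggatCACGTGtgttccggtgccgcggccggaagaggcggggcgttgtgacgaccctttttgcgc
Rrn3: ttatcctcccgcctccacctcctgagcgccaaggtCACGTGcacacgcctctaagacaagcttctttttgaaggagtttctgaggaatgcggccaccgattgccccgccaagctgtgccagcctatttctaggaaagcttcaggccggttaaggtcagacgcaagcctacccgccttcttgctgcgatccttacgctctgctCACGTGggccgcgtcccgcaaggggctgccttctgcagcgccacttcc

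The related sequence CACGCG, read on either strand, occurred in windows of 11 of the 32 members (34.4%). Its share was 13.7% of protein-coding genes, 29.1% of the 86 other ribosome biogenesis factors and 17.5% of the 57 ribosomal protein genes. A match is a description of these letters and not a binding site measured in these tissues. The 6 ribosome biogenesis members with CACGTG had a median log2 difference between tumor and small intestine of 1.51 (range 1.03 to 1.97). The 21 with a window and no CACGTG had a median of 1.61 (range -0.02 to 2.21), and the first range lay within the second.

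Of the 38 members, 34 were higher in tumor, 3 were lower (Max, Mxd1 and Mxi1) and 1 (Ubtf) did not pass the test, by the quasi-likelihood test of edgeR, with p-values adjusted over all tested genes by Benjamini-Hochberg and a threshold of 0.05. The background was high: 74.3% of the 17029 tested genes were called, 38.9% as higher and 35.4% as lower. Values of tumor and small intestine did not overlap for 37 of the 38 members, and for 70.5% of all tested genes. The members' median log2 difference was 1.61, beside 0.07 for all tested genes. At least a doubling was measured for 31 of the 38 members, beside 29.1% of all tested genes. Since the tissue was measured in bulk, fewer cells of a type and less RNA per cell cannot be told apart.

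Differences are given on CPM values scaled by the trimmed mean of M-values (TMM), and the scaling matters in these libraries. TMM factors were 1.33 to 1.38 in tumor and 0.687 to 0.788 in small intestine, and with library totals alone the median of all tested genes moved from 0.07 to 0.93. The calls split into 6619 higher and 6030 lower genes with TMM and into 10564 higher and 2996 lower genes with library totals. With library totals, 35 members were higher and 3 lower, with a median of 2.47. Max, Mxd1 and Mxi1 were lower, and Myc, Mycn and Mycl higher, under both scalings.

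The tissue labels were checked against marker genes. All 10 enterocyte genes, among them the brush-border enzyme sucrase-isomaltase (Sis), were lower in tumor, with a summed level of 591 to 1031 CPM in tumor against 61389 to 76219.9 CPM in small intestine. All 7 genes of Apc-mutant tumors, which are Wnt targets such as Notum and Nkd1, were higher, at 1730.2 to 2144 CPM against 61.4 to 136 CPM. The epithelial genes summed to 6915 to 9449 CPM against 24467 to 31848 CPM, and 8 of 9 were lower. With library totals 6 of 9 were still lower, 2 were higher and Epcam was not called. Of those 2, Krt18 was also higher with TMM, while Cdh1 changed direction (-0.43 with TMM, 0.45 with library totals).

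Cells of other kinds differed as well. Fibroblast genes were higher for 8 of 8 (1308 to 2047 against 108 to 146 CPM), endothelial genes for 6 of 6 (179 to 233 against at most 24.1 CPM), smooth muscle genes for 4 of 6 (154 to 188 against 31.9 to 96.8 CPM) and myeloid genes for 5 of 7 (167 to 318 against 64.6 to 194 CPM). Of the genes of lymphocytes and plasma cells, 7 of 8 were lower (356 to 1032 against 542 to 1350.4 CPM). With library totals these counts were 8 of 8, 6 of 6, 6 of 6 and 7 of 7 higher, and 6 of 8 lower. Over all 17029 tested genes, 38.9% were called higher and 35.4% lower with TMM, and 10564 higher and 2996 lower with library totals. Genes of cycling cells were higher for 12 of 12, with a sum of 1352 to 1677 CPM in tumor against 351 to 585 CPM in small intestine. None of the 12 cycling genes and none of the 9 epithelial genes was at 0 in any library. The part of these cell types and of cycling in the members' differences was not tested.

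Within the MYC network, the MYC family genes rose in tumor and their partner and antagonists fell. Myc (chromosome 15, 61985391 to 61990374 on GRCm38), the family member best known from intestinal tumors, was measured at 106, 113, 98.8 and 156 CPM in tumors 1 to 4 and at 20.3, 20.3, 24.9 and 11.7 CPM in small intestines 1 to 4. The lowest tumor was thus far above the highest small intestine, and tumor 4 stood highest while small intestine 4 stood lowest. The means were 118 ± 25.9 and 19.3 ± 5.51 CPM (SD, n = 4 each), a log2 difference of 2.62 ± 0.24 (SE; 95% interval 2.07 to 3.16), or 6.14-fold (edgeR adjusted p = 8.83e-06).

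Mycl (chromosome 4, 122995652 to 123002485), a family member with a weaker transactivation domain, was measured at 139.9, 143, 149 and 247 CPM in tumor and at 26.8, 20.3, 23.2 and 17.3 CPM in small intestine. The other three tumors lay close together and tumor 4 stood well above them. Its log2 difference of 2.96 ± 0.22 (SE; edgeR adjusted p = 2.61e-06) was the highest of all members with all libraries. Without tumor 4 it was 2.76, below the 2.84 of Mycn, and without small intestine 3 it was 2.98, below the 3.04 of Mycn. Mycn (chromosome 12, 12936093 to 12941914), the family member of embryonic and neural tissue, was low in both tissues, at 7.88, 8.11, 7.96 and 8.62 CPM in tumor and 1.22, 1.04, 1.62 and 0.690 CPM in small intestine. The tumor values lay within a narrow band above those of small intestine, with a log2 difference of 2.84 ± 0.27 (SE; edgeR adjusted p = 9.76e-06).

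Max (chromosome 12, 76937269 to 76962201), the shared dimer partner, ran the other way. It was measured at 75.9, 78.0, 78.4 and 78.8 CPM in tumor and at 304, 413, 347 and 469 CPM in small intestine. The 4 tumors were nearly equal, and each small intestine was several times higher, with a log2 difference of -2.30 ± 0.14 (SE; edgeR adjusted p = 7.54e-07). With library totals the difference was -1.42.

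Mxd1 (chromosome 6, 86647042 to 86669161), a MAX partner found in differentiating cells, was measured at 199, 209.9, 226 and 136 CPM in tumor and at 762, 1659, 944 and 1557.5 CPM in small intestine. Tumor 4, the library with the most Myc, had the least Mxd1, and the small intestines varied most, with means of 192 ± 39.6 and 1231 ± 444 CPM (SD, n = 4 each). Its log2 difference was -2.68 ± 0.29 (SE; edgeR adjusted p = 2.4e-05). Mxi1 (chromosome 19, 53310518 to 53375810), another such antagonist, was measured at 52.2, 54.6, 53.6 and 56.2 CPM in tumor and at 136, 268, 183 and 192 CPM in small intestine, a log2 difference of -1.85 ± 0.18 (SE; edgeR adjusted p = 1.41e-05). With library totals its difference was -0.97 (edgeR adjusted p = 0.000426), the smallest in size of these 6 genes.

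**Figure D1:**
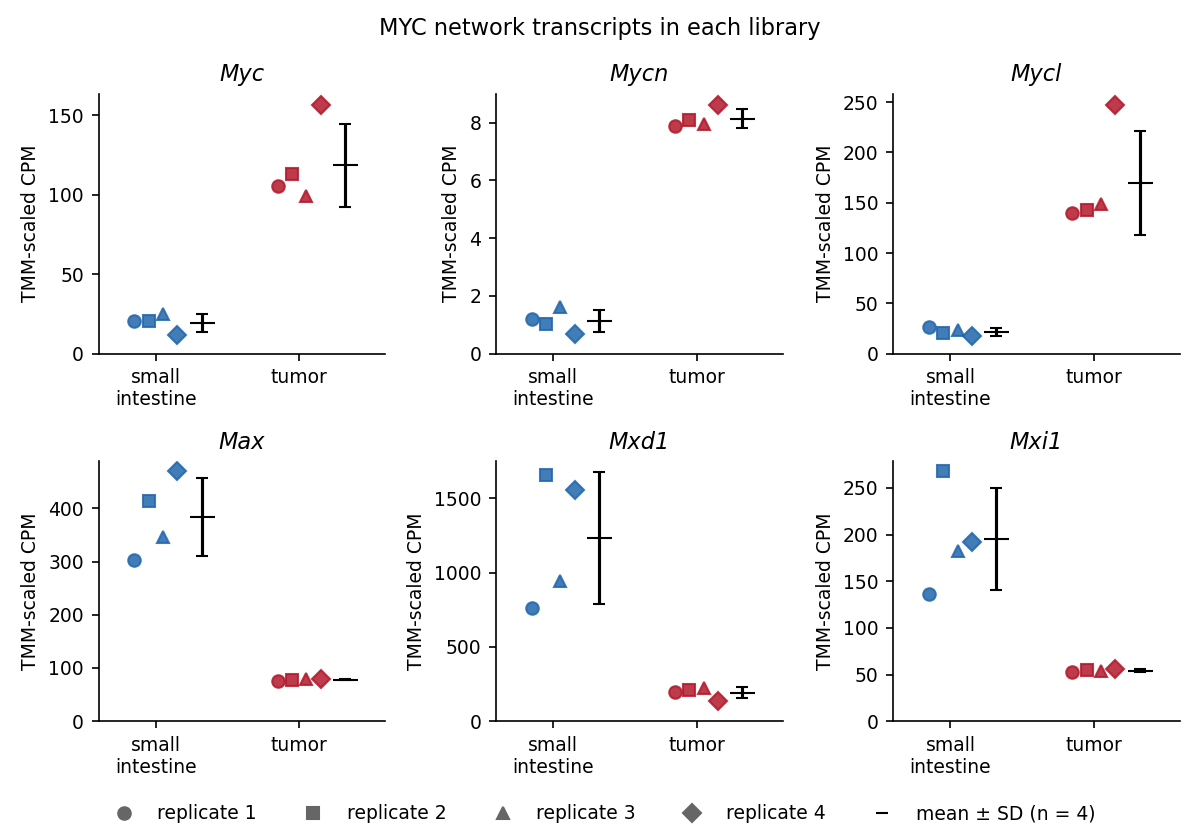
Level of the 6 MYC network genes in each library, in TMM-scaled CPM on linear axes that differ between panels, with points for the 4 tumor (red) and 4 small intestine (blue) libraries and black bars for mean ± SD. Myc, Mycn and Mycl are higher in every tumor than in any small intestine, and Max, Mxd1 and Mxi1 are lower in every tumor; Mycl reaches 247 CPM in tumor 4.

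The balance between MYC and its partners was compared within each library as a log2 ratio, which does not depend on the scaling between libraries. The mean log2 ratio of Myc to Max counts was 0.58 ± 0.28 in tumor and -4.34 ± 0.70 in small intestine (SD, n = 4 each), a difference of 4.93, or 30.4-fold. The mean log2 ratio of Mxd1 to Myc was lower in tumor by 38.6-fold. The log2 ratio of Mxd1 to Max, in contrast, differed by -0.35 and had overlapping groups. It did not pass a 2-sided exact permutation test over the libraries (adjusted p = 0.244). With 1 library left out the difference ran from -0.45 to -0.18, so neither an equal change nor a difference was read from it. Mxi1 per Max was higher in tumor by 0.48, with groups apart. It did not pass with any 1 tumor left out, although the difference then stayed at 0.46 to 0.48. In all, 16 ratios between members were tested, and 13 had groups apart. Each of the 13 had an adjusted exact permutation p of 0.0352 (unadjusted p = 0.0286), the smallest that 4 against 4 libraries with this adjustment gave. The adjusted p also depends on how many of the 16 ratios share that smallest p. Groups were apart for 70.5% of single tested genes too. Ratios of other gene pairs were not computed, so the 13 are not read as a trait of partners.

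On the scale of FPKM (fragments scaled by transcript length and library size), which allows levels of different genes to be set side by side, Mxd1 and Max led in small intestine, and Myc and Mycl stood near them in tumor. In small intestine Mxd1 had the highest mean FPKM of all 38 members (160.0 ± 56.0) and Max the next (128 ± 19.6), while Myc ranked 22 (6.16 ± 2.09), Mycl 27 (4.16 ± 0.834) and Mycn 38 (SD, n = 4 each). In tumor Myc ranked 9 (63.9 ± 14.2), Mycl 11 (59.2 ± 19.7), Max 12 (50.3 ± 1.58), Mxd1 13 (48.3 ± 9.07) and Mycn 38 (3.63 ± 0.203). Neighbours in this tumor order, from Myc to Mxd1, differed by less than the larger of their SDs. Mycl was above Mxd1 in tumor 4 alone, at 88.7 against 35.1 FPKM, and Myc was below Mxd1 in tumor 3, at 53.0 against 55.3 FPKM.

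The summed FPKM of Myc, Mycn and Mycl was 2.23, 2.29, 2.14 and 3.38 times the FPKM of Max in tumors 1 to 4. In small intestines 1 to 4 it was 0.115, 0.0775, 0.109 and 0.0447 times that of Max. The MYC family transcripts thus outnumbered those of Max per length in each tumor and were far below them in each small intestine. Per summed FPKM of Mxd1 and Mxi1, the family stood at 1.64, 1.66, 1.50 and 3.39 in tumor and at 0.0297 to 0.0983 in small intestine.

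Of 10 further genes of the extended network, 3 were higher, 5 lower and 2 not called with TMM. Among all tested genes, 38.9% were called higher and 35.4% lower with TMM. Library totals gave 9 higher and 1 lower of the 10, beside 10564 higher and 2996 lower among all 17029 tested genes. The 3 higher with TMM were Skp2 (log2 difference 1.42), Mga (1.04) and Fbxw7 (0.61). Skp2 is a ubiquitin ligase subunit that acts on MYC, Mga is a large MAX partner, and Fbxw7 marks MYC for degradation. Mlx, the dimer partner of a parallel network of glucose-sensing factors, fell by 2.29 ± 0.12 on the log2 scale (SE; edgeR adjusted p = 2.49e-07), from 154 CPM in small intestine to 31.4 CPM in tumor. Its size was close to that of Max, and it remained lower with library totals (-1.42). The other four lower genes (Usp28, Mxd4, Mlxip and Zbtb17) differed by -0.49 to -0.19 and were called higher with library totals, so their direction depended on the scaling. Mnt (0.03) and Mxd3 (0.31) did not pass the test with TMM and were called higher with library totals (0.89 and 1.17).

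Of the 32 ribosome biogenesis members, 31 were higher in tumor, none was lower and 1 (Ubtf) was not called. Their median log2 difference was 1.61, beside 0.07 for all tested genes, of which 38.9% were called higher and 35.4% lower. The group medians lay close together, at 1.82 for nucleolar phosphoproteins and GTPases, 1.75 for the box C/D snoRNP, 1.69 for the box H/ACA snoRNP, 1.60 for small-subunit assembly, 1.43 for large-subunit assembly and 1.31 for RNA polymerase I. Genes within a group could differ by more than the medians did: large-subunit factors ran from 0.35 to 2.31 and RNA polymerase I genes from -0.02 to 1.81.

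**Figure D2:**
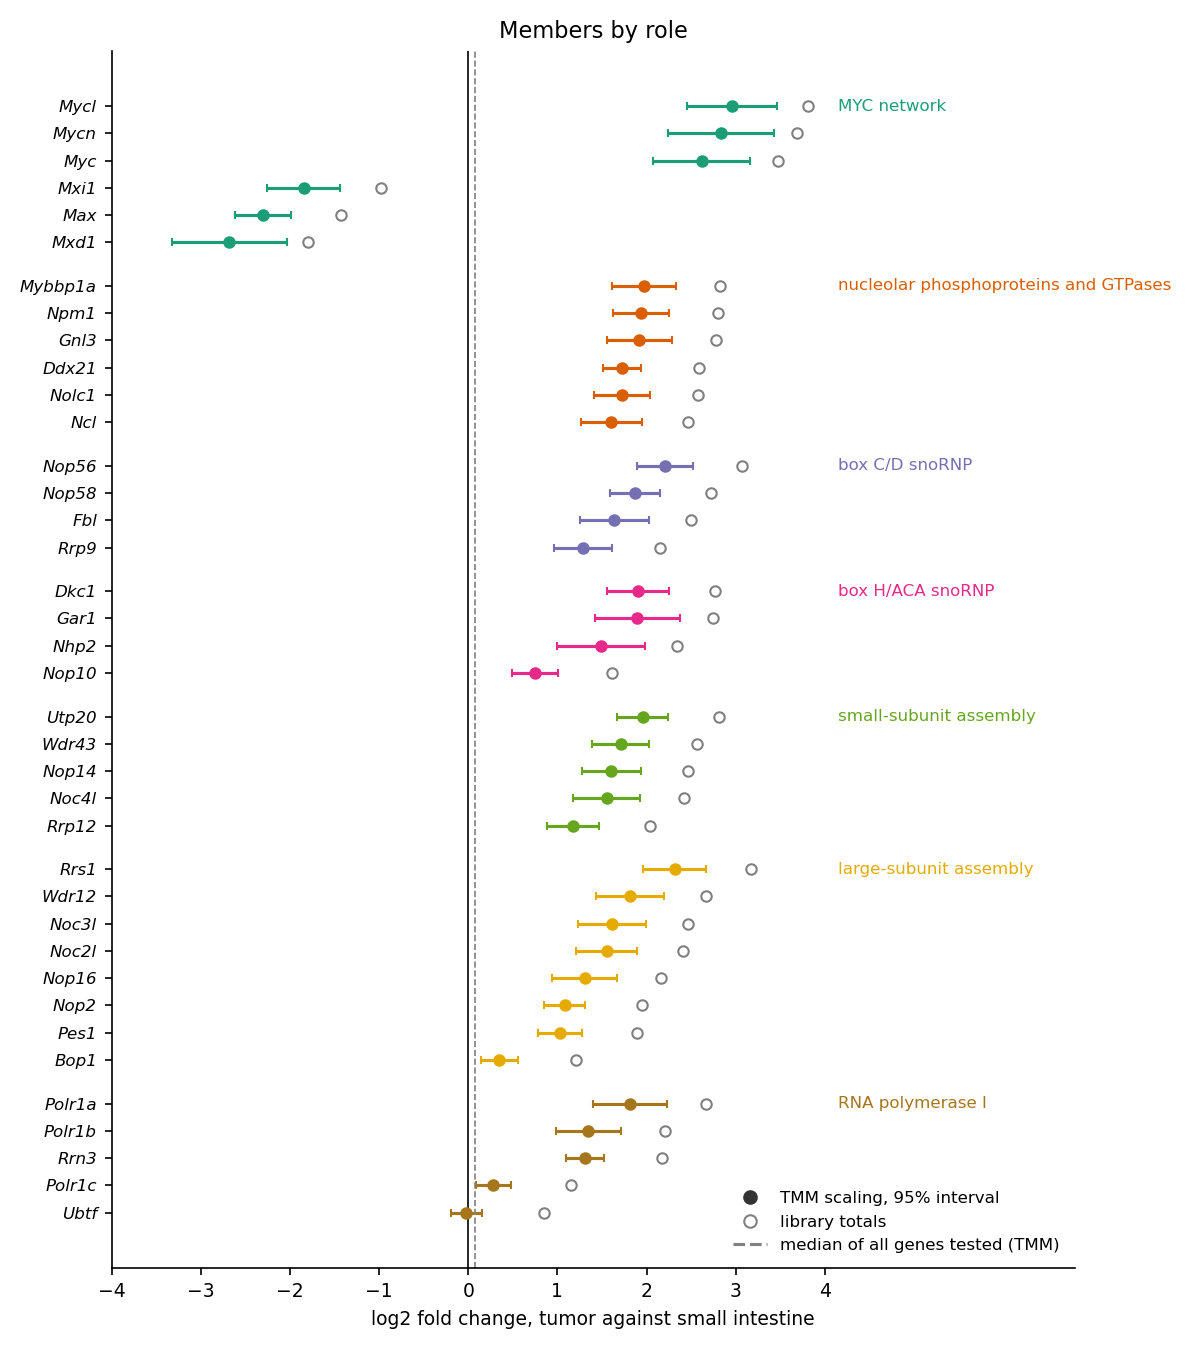
Log2 difference in CPM between tumor and small intestine for the 38 members, grouped by role, with filled points at the edgeR estimate under TMM, bars for its 95% interval, open points for library totals and a dashed line at the median of all tested genes. Under TMM the biogenesis members lie to the right of 0 except Ubtf (-0.02), with Polr1c (0.28) and Bop1 (0.35) nearest to it, and Max, Mxd1 and Mxi1 lie to the left under both scalings.

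The nucleolar proteins that are most abundant as transcripts were among those that rose. Ncl (nucleolin, a chaperone of ribosomal RNA) was measured at 819, 843, 709.8 and 958 CPM in tumor and at 273, 265, 333 and 222 CPM in small intestine. Npm1 (nucleophosmin, which organises the outer nucleolus) was measured at 634, 621, 579 and 739.8 CPM in tumor and at 166, 167, 199.7 and 138 CPM in small intestine. In both genes tumor 4 and small intestine 3 were the highest of their groups and tumor 3 and small intestine 4 the lowest, and the groups were far apart. The log2 differences were 1.61 ± 0.15 for Ncl and 1.94 ± 0.14 for Npm1 (SE; edgeR adjusted p = 1.08e-05 and 1.84e-06). By FPKM, Npm1 and Ncl ranked 1 and 2 among the members in tumor, at 534 and 237.

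Mybbp1a, a nucleolar protein that also binds transcription factors and is one of the genes with CACGTG downstream of its start, was measured at 274, 281, 237 and 315 CPM in tumor and at 79.5, 69.2, 81.8 and 51.9 CPM in small intestine. The groups did not overlap, and the log2 difference was 1.97 ± 0.16 (SE; edgeR adjusted p = 3.95e-06). Gnl3 (nucleostemin, a GTPase of proliferating cells) differed by 1.92, Ddx21 (an RNA helicase that links RNA polymerase I to processing) by 1.73 and Nolc1 (a chaperone of snoRNPs) by 1.72. All 6 nucleolar genes thus lay between 1.61 and 1.97 on the log2 scale.

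The box C/D snoRNP is the particle that methylates ribosomal RNA, with fibrillarin (Fbl) as its enzyme and Nop56 and Nop58 as its scaffold. Nop56 was measured at 124, 127, 114 and 149 CPM in tumor and at 29.1, 26.5, 33.3 and 22.6 CPM in small intestine. The lowest tumor was above 3 times the highest small intestine, with a log2 difference of 2.21 ± 0.14 (SE; edgeR adjusted p = 8.39e-07). Nop58 differed by 1.87 and Fbl by 1.64. Rrp9, which joins the particle that processes the precursor rather than modifying it, had the smallest difference of the 4, with 32.5, 31.9, 29.8 and 36.4 CPM in tumor against 12.2, 13.0, 17.0 and 11.2 CPM and a log2 difference of 1.29 ± 0.14 (SE; edgeR adjusted p = 2.98e-05). Within libraries, the log2 ratio of Nop56 to Fbl was higher in tumor by 0.55 and that of Nop58 to Fbl by 0.20, each with groups apart and an adjusted exact permutation p of 0.0352. The Nop58 ratio did not pass by FPKM (0.13, adjusted exact permutation p = 0.213). Nor did it pass with any 1 tumor left out, although its difference then stayed at 0.19 to 0.22.

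The box H/ACA snoRNP converts uridine to pseudouridine, with dyskerin (Dkc1) as its enzyme and Nhp2, Nop10 and Gar1 as its core partners; dyskerin also belongs to telomerase. Dkc1 was measured at 61.4, 55.8, 48.4 and 68.2 CPM in tumor and at 14.7, 15.4, 19.5 and 13.0 CPM in small intestine, a log2 difference of 1.90 ± 0.15 (SE; edgeR adjusted p = 3.63e-06). Gar1 differed by the same 1.90 and Nhp2 by 1.49. Nop10, the smallest subunit, was measured at 41.7, 37.9, 42.1 and 36.5 CPM in tumor and at 21.3, 21.3, 28.4 and 23.2 CPM in small intestine. Its groups did not overlap, but its difference of 0.75 ± 0.12 (SE; edgeR adjusted p = 0.000263) was well under that of its partners.

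The ratio of Nop10 to Dkc1 was 2.22-fold lower in tumor, with groups apart (adjusted exact permutation p = 0.0352). Nop10 thus rose by less than the enzyme it binds, within the same libraries. Nhp2 to Dkc1 differed by -0.36, with groups apart. It did not pass with any 1 tumor left out (-0.40 to -0.31) or with small intestine 3 left out (-0.24). Gar1 to Dkc1 differed by 0.04 with overlapping groups (adjusted exact permutation p = 0.8), and by FPKM the same ratio differed by -0.72, so no direction was read from it.

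Small-subunit assembly factors bind the precursor early and prepare the small subunit for export. Utp20, a large scaffold of the early particle, was measured at 47.1, 49.1, 49.8 and 53.2 CPM in tumor and at 12.9, 14.7, 13.7 and 10.0 CPM in small intestine. The 4 tumors lay close together, and the log2 difference was 1.96 ± 0.13 (SE; edgeR adjusted p = 9.98e-07). Wdr43 differed by 1.71, Nop14 by 1.60 and its partner Noc4l by 1.55. Rrp12, which acts on export of both subunits, differed least, with 26.5, 29.9, 25.8 and 30.3 CPM in tumor against 11.3, 13.1, 14.8 and 10.7 CPM and a log2 difference of 1.17 ± 0.13 (SE; edgeR adjusted p = 2.7e-05).

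Large-subunit assembly showed the widest range of all groups above 0. Rrs1, which brings in the ribonucleoprotein of the smallest ribosomal RNA, was measured at 49.4, 53.1, 50.3 and 56.6 CPM in tumor and at 10.3, 10.4, 13.5 and 7.92 CPM in small intestine. Each tumor was above 3 times any small intestine, and the log2 difference of 2.31 ± 0.16 (SE; 4.97-fold; edgeR adjusted p = 1.24e-06) was the highest of the 32 biogenesis members. Noc3l differed by 1.61, its partner Noc2l by 1.55, Nop16 by 1.30 and Nop2, a ribosomal RNA methyltransferase, by 1.08.

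Pes1, Bop1 and Wdr12 form 1 complex in large-subunit assembly, and they did not differ alike. Wdr12 differed by 1.81 and Pes1 by 1.03. Bop1 was measured at 71.8, 66.7, 68.7 and 73.1 CPM in tumor and at 51.4, 50.3, 62.9 and 55.5 CPM in small intestine. Its groups came within 4 CPM of each other without overlapping, and its log2 difference was 0.35 ± 0.09 (SE; 95% interval 0.14 to 0.56; edgeR adjusted p = 0.00666). Within libraries, Wdr12 per Bop1 was 2.78-fold higher in tumor and Pes1 per Bop1 1.61-fold higher, each with groups apart (adjusted exact permutation p = 0.0352). In the GENCODE annotation Bop1 overlaps Mroh1 and Scx, Pes1 overlaps 4930556J24Rik and Wdr12 overlaps Carf. The counting's strand setting is not given in the sources used here, so reads of these genes may not have been told apart.

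RNA polymerase I held the 1 member not called. Polr1a, its largest subunit, was measured at 48.4, 54.1, 51.0 and 68.6 CPM in tumor and at 15.3, 15.6, 20.7 and 11.6 CPM in small intestine, a log2 difference of 1.81 ± 0.18 (SE; edgeR adjusted p = 1.69e-05). The other large catalytic subunit, Polr1b, differed by 1.35, and Rrn3, the factor that makes the polymerase competent for initiation and the member with 2 CACGTG matches, by 1.31 ± 0.09 (SE; edgeR adjusted p = 1.93e-06).

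Polr1c, a subunit that RNA polymerases I and III share, was measured at 36.6, 38.9, 41.9 and 43.7 CPM in tumor and at 34.1, 32.3, 31.8 and 34.3 CPM in small intestine. The lowest tumor lay just above the highest small intestine, and the log2 difference was 0.28 ± 0.09 (SE; 95% interval 0.09 to 0.47; edgeR adjusted p = 0.0136). Ubtf, the factor that keeps ribosomal DNA open and recruits the polymerase, was measured at 150.3, 145, 148 and 151 CPM in tumor and at 143, 152, 148 and 161 CPM in small intestine. Its groups overlapped, and its log2 difference was -0.02 ± 0.08 (SE; 95% interval -0.20 to 0.15; edgeR adjusted p = 0.794). With library totals Ubtf differed by 0.84 and was called higher (edgeR adjusted p = 2.85e-06), so neither a direction nor its absence can be given apart from the scaling.

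The subunit ratios do not depend on that scaling. Polr1c per Polr1a was 2.93-fold lower in tumor and Ubtf per Polr1a 3.60-fold lower, each with groups apart (adjusted exact permutation p = 0.0352). Polr1b per Polr1a differed by -0.46, also with groups apart. It did not pass without small intestine 1, 3 or 4, although the difference then stayed at -0.46 to -0.45. Rrn3 per Polr1a differed by -0.51 and did not pass (exact permutation p = 0.0571, adjusted p = 0.0653), but passed without tumor 1 (adjusted exact permutation p = 0.0416). Polr1a therefore differed by more than Polr1b, Polr1c and Ubtf, measured in the same libraries.

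**Figure D3:**
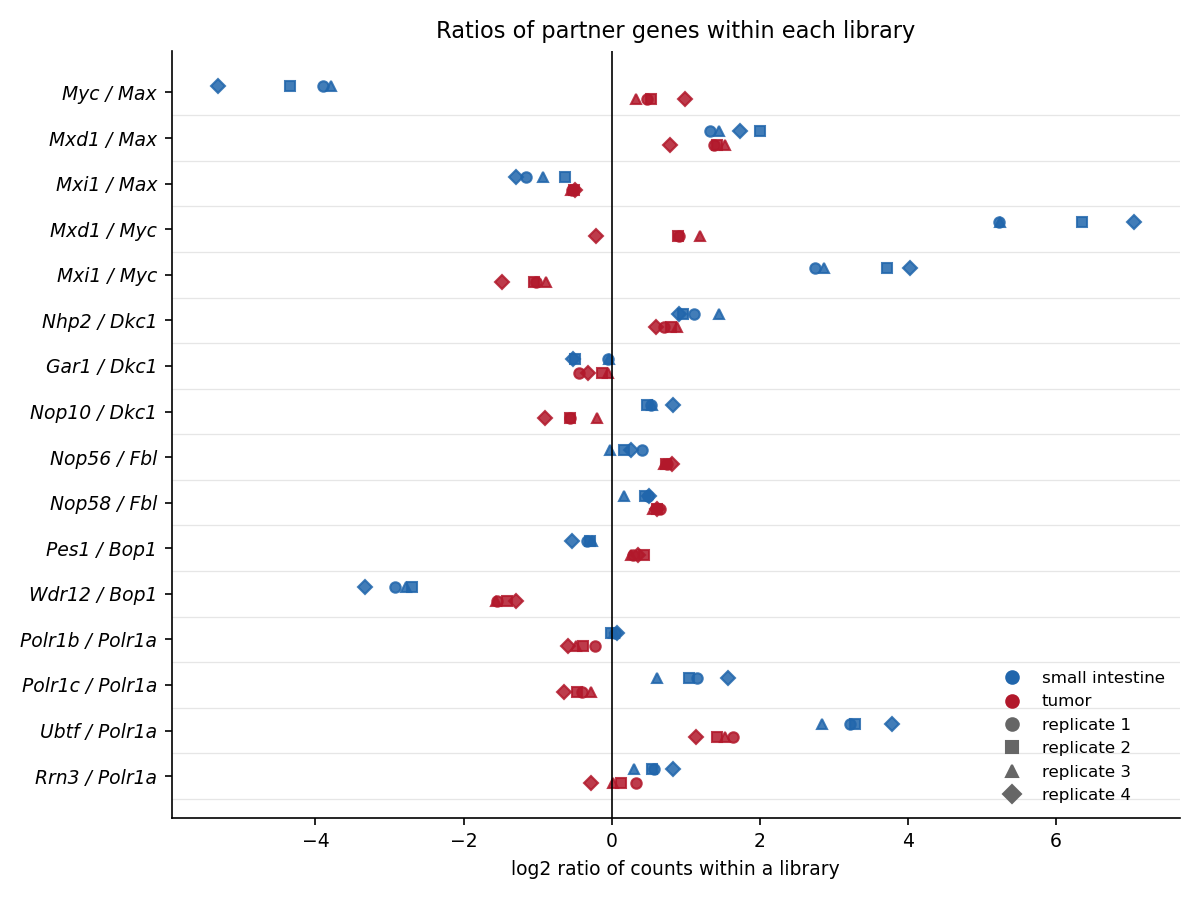
Within-library log2 ratios between members of 1 complex or network, with points for the 4 tumor (red) and 4 small intestine (blue) libraries. The Myc to Max ratio lies near 0.58 in tumor and near -4.34 in small intestine, and Gar1 to Dkc1, Mxd1 to Max and Rrn3 to Polr1a are the 3 ratios that did not pass the test.

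Members moved together within each tissue as well. Among the 32 biogenesis members, tumor 4 was the highest tumor in 29 and tumor 3 the lowest in 22. In small intestine, library 3 was the highest in 29 and library 4 the lowest in 26. Relative to the average of the remaining libraries of its tissue, the median member stood at 1.15 in tumor 4, 0.882 in tumor 3, 1.33 in small intestine 3 and 0.773 in small intestine 4. Of the 78 ribosomal protein genes treated below, 58 were highest in tumor 4 and 2 lowest in tumor 3. Small intestine 3 was highest in 77 of them and small intestine 4 lowest in 45. The order was not computed over all tested genes, so it is not read as particular to the members.

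The genes of cycling cells followed the same libraries. Tumor 4 was highest in 11 of the 12 cycling genes and tumor 3 lowest in 9, and small intestine 3 was highest in 9 and small intestine 4 lowest in 7. Their median ratios were 1.17, 0.865, 1.55 and 0.688 in the same order of libraries. Myc followed the order as well, with its highest tumor value in tumor 4, its lowest in tumor 3, and its highest and lowest small intestine values in libraries 3 and 4. With 4 libraries in each tissue no correlation was computed, and the part of cycling cells in this order was not tested.

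**Figure D4:**
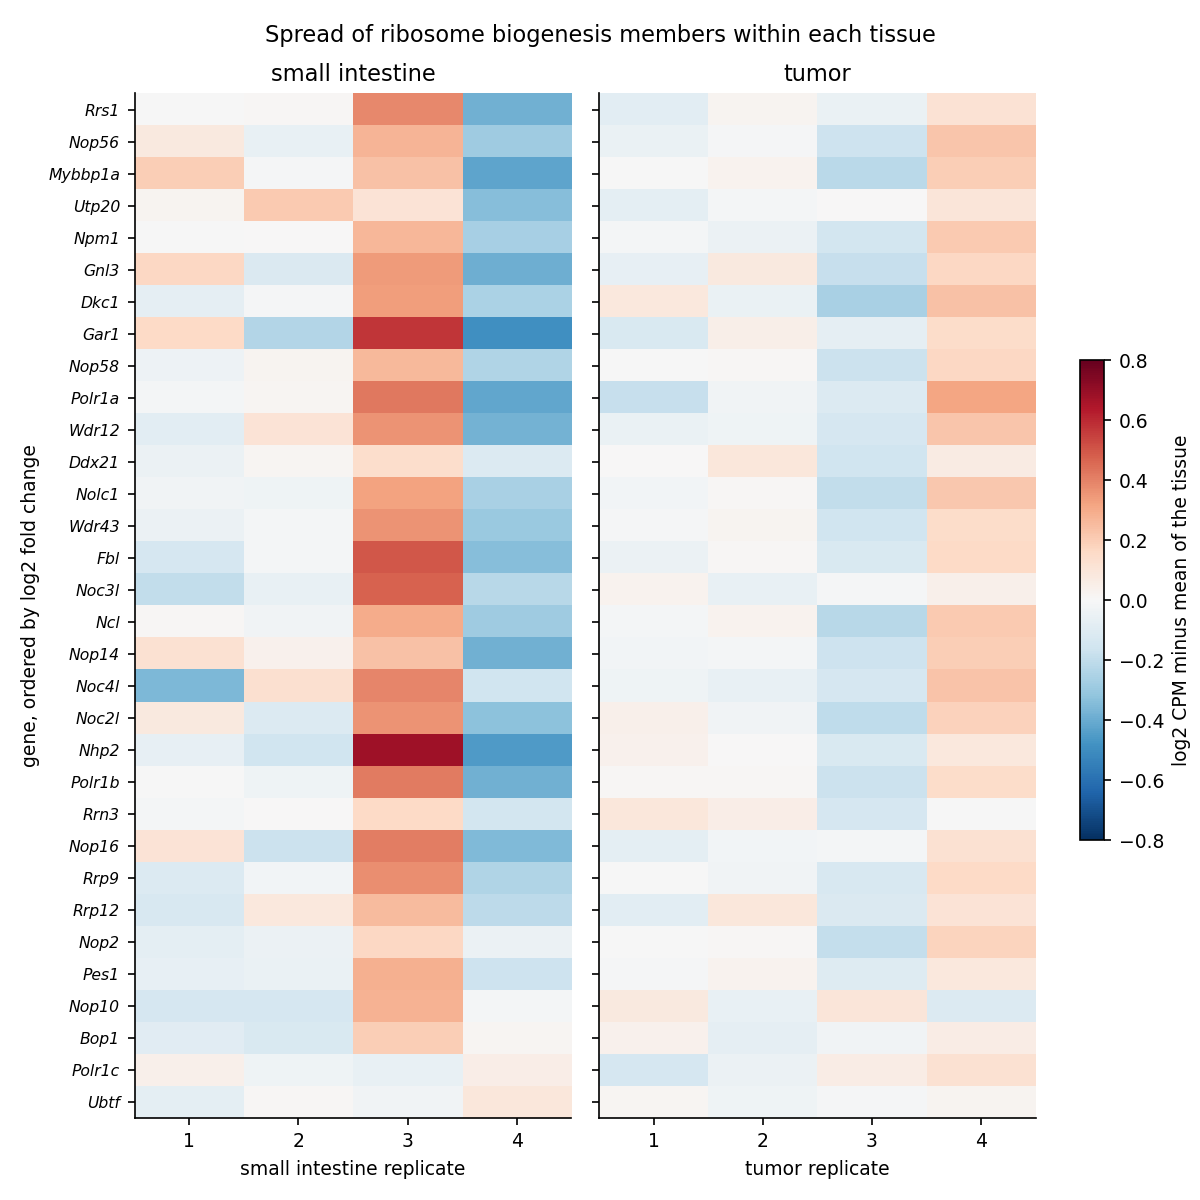
Heat map of the 32 biogenesis members (rows, ordered by their log2 difference) in the 4 libraries of each tissue (columns), where the colour is log2 CPM minus the gene's mean over that tissue, red above and blue below it. The columns of tumor 4, the highest tumor in 29 members, and small intestine 3, the highest small intestine in 29, are mostly red, and those of tumor 3 and small intestine 4 mostly blue.

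A wider list of 100 other ribosome biogenesis genes, of which 99 were matched and tested, showed the same direction for most genes. Of the 99, 83 were higher (83.8%), 6 lower and 10 not called, with a median log2 difference of 1.01. Of all tested genes, 38.9% were called higher and 35.4% lower. With library totals 94 of the 99 were higher and 1 lower. Small-subunit factors were higher in 38 of 45 and lower in 1, large-subunit factors higher in 39 of 44 and lower in 4, and RNA polymerase I genes higher in 6 of 10 and lower in 1. The highest were Rrp1b, a nucleolar large-subunit factor (2.27; 39.8 against 8.25 CPM), and the early small-subunit factors Wdr75 (2.17) and Utp4 (2.13).

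The 6 lower genes were Eif6, Rrp36, Sbds, Nop53, Taf1c and Efl1. Eif6, which keeps the new large subunit from joining the small one, was measured at 175 to 192 CPM in tumor, below the 424 to 552 CPM of small intestine. Its groups were far apart, with a log2 difference of -1.44 ± 0.11 (SE; edgeR adjusted p = 2.2e-06), and it remained lower with library totals (-0.58; edgeR adjusted p = 0.00038). Sbds and Efl1, whose products release EIF6 from the subunit, differed by -0.86 (59.9 against 109 CPM) and -0.41 (43.0 against 57.2 CPM). Efl1 was chosen for naming after its values were seen. Both depended on the scaling: with library totals Sbds was not called (0.01; edgeR adjusted p = 0.924) and Efl1 was called higher (0.46). Nop53 (-0.79), Rrp36 (-0.87) and Taf1c (-0.62) were likewise not lower with library totals, at 0.07, 0.00 and 0.24.

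Ribosomal proteins, the main cargo of this machinery, differed less than the factors that assemble them. Of 78 cytosolic ribosomal protein genes, 32 were higher, 2 lower (Fau at -0.93 and Rps27 at -0.38) and 44 not called, with a median log2 difference of 0.35. The 32 are 41.0% of the list, near the 38.9% of all tested genes called higher. With library totals Fau was not called (-0.07) and Rps27 was called higher (0.47). The 1 gene with at least a doubling was Rpl15 (1.01). Small intestine 3 was the highest of its tissue in 77 of the 78 genes, at a median of 1.49 times the others, and without it 51 were higher. With library totals 74 of 78 were higher and none lower, with a median of 1.20, so their number of calls depended on the scaling. Their median was below that of the 38 members on both scales (1.61 with TMM and 2.47 with library totals).

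Shares of all counted reads, which are on the scale of library totals, gave the weight of both groups in each library. The 32 biogenesis members held 0.504%, 0.510%, 0.452% and 0.587% of counts in tumors 1 to 4 and 0.103%, 0.0948%, 0.121% and 0.0791% in small intestines 1 to 4. The 78 ribosomal protein genes held 4.85%, 4.86%, 5.01% and 5.42% in tumor and 2.68%, 1.83%, 3.18% and 1.71% in small intestine. Both shares were higher in each tumor than in any small intestine. Counts of ribosomal proteins per count of biogenesis members, a ratio free of that scaling, were 9.62, 9.52, 11.1 and 9.24 in tumor and 25.9, 19.3, 26.3 and 21.6 in small intestine, so each tumor had fewer ribosomal protein counts per biogenesis count than any small intestine.

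**Figure D5:**
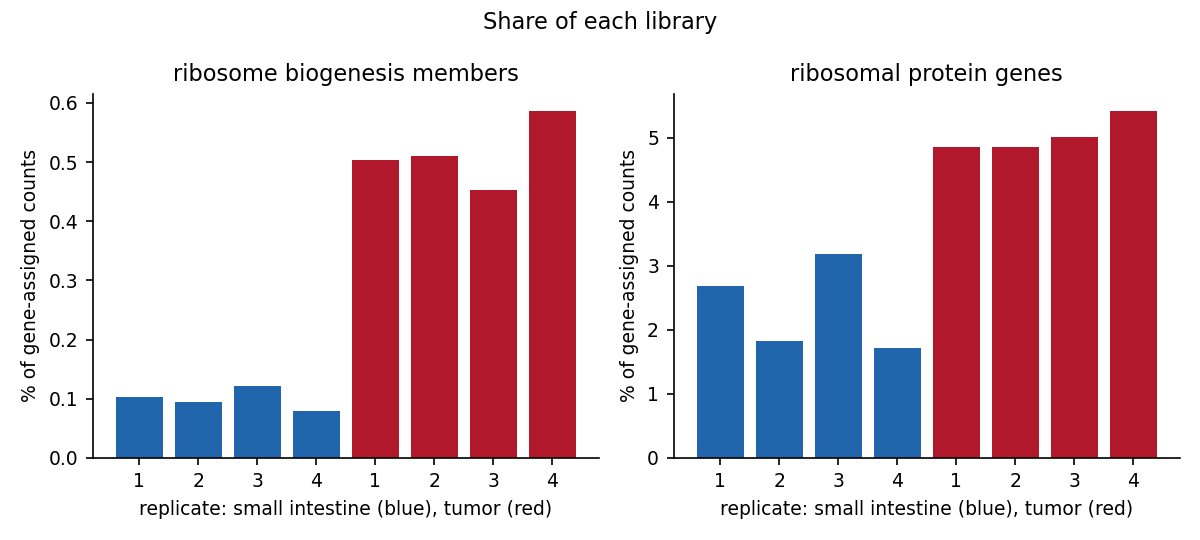
Share of all counted reads, in percent, held by the 32 ribosome biogenesis members and by 78 ribosomal protein genes in each library. Biogenesis members hold 0.452% to 0.587% in tumor and 0.0791% to 0.121% in small intestine, and ribosomal proteins hold 4.85% to 5.42% and 1.71% to 3.18%; bars are blue for small intestine and red for tumor.

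Genes known as MYC targets outside the nucleolus were taken as a further list, in nucleotide synthesis, metabolism, translation and the cell cycle. Of the 22, 20 were higher (90.9%), 1 lower and 1 not called, with a median log2 difference of 1.45. Of all tested genes, 38.9% were called higher and 35.4% lower. The highest were Ppat, the first committed enzyme of purine synthesis (2.92; 48.1 against 6.34 CPM), the histone chaperone Nap1l1 (2.42) and the DNA repair enzyme Apex1 (2.36). Nme2, a nucleoside diphosphate kinase, was lower (-0.63) but not called with library totals (0.24). Ccnd2, a cyclin of the first gap phase, did not pass the test (-0.49; edgeR adjusted p = 0.113).

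The members lie on 18 chromosomes and are all protein-coding in the GENCODE annotation of GRCm38. Of the 38, 6 carry snoRNA genes on their own strand, 19 in all: Nop56 holds 5, Nop58 4, Ncl, Gnl3 and Wdr43 3 each and Dkc1 1. Most snoRNAs are cut from introns of such host genes, so these genes encode both proteins and guide RNAs of the same machinery; the snoRNAs themselves were not analysed here. In addition, 11 members overlap another protein-coding gene, Nop56 with Idh3b, Rrp9 with Parp3, Dkc1 with Mpp1 and Nhp2 with Rmnd5b among them, and their counts may hold reads of the neighbour.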

How the data were processed

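TRIzol extraction was followed by DNase treatment, a cleanup column and Illumina library preparation, per the labels' protocols. The counts, deposited by the authors as whole reads for each gene in 8 libraries, carry no normalization. The FPKM values, also as deposited by the authors, are scaled by transcript length and depth. Per the submitters' processing notes, FastQC, STAR, HTSeq 0.6.0, Cufflinks 2.2.1 and the build GRCm38 were used; the sources used here do not give the annotation, strand setting or filters.

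The 38 members and the further gene lists were chosen with earlier results of these data known. Counts were tested with edgeR 4.0.16 (TMM scaling, filterByExpr, quasi-likelihood test of tumor against small intestine over 8 libraries), with Benjamini-Hochberg adjustment over 17029 genes; 16347 genes had 0 counts in each library. Library values are given for the MYC network, for the highest and lowest member of each role and for members not called, with Npm1 and Polr1c added after their values were seen; of the wider lists, the 3 highest and 3 lowest called genes and up to 5 against the majority are named, unless stated; 1 gene is not reported here. Libraries of 1 group differed beyond counting noise (chi-square per degree of freedom 38.9 or more), so none was a repeat deposit. Within-library log2 ratios used counts plus 1 and 2-sided exact permutation tests over libraries, adjusted over 16 ratios. Outlying libraries were sought with Dixon's ratio at 0.829.

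Alternatives were library totals, DESeq2 1.42.0, other filters, TMM without the 50 most abundant genes, a minimum fold of 2, limma 3.58.1 on log2(FPKM + 1) and log2(FPKM + 0.1), the replicate number as a block, and leaving out each library. The fits were tested on simulated counts. Coordinates are from GENCODE M21 (GRCm38) and promoter windows from RefSeq (GRCm38.p6). Intervals are 95% intervals of the fitted log2 difference.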

Additional observations from a re-analysis of the deposited data

Results flagged for a closer look

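Among 108 groups of 4 libraries examined (members and their ratios in each tissue), 2 had 1 library that stood apart from the other three by Dixon's ratio, where chance marks about 1 in 20 groups. Mycl was 247 CPM in tumor replicate 4, while the other three tumors lay at 139.9 to 149 CPM. Nop2 was 38.2 CPM in small intestine replicate 3, while the other three small intestines lay at 32.3 to 33.0 CPM. Tumor replicate 4 was also the tumor with the most Myc and the least Mxd1, and 29 of 32 biogenesis members had their highest small intestine value in replicate 3. Both genes were called higher in tumor without these libraries.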

How the results depend on the processing

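The counts of 34 higher and 3 lower members were the same with DESeq2, with other filters, without the 50 most abundant genes in TMM and with any 1 library left out, and were 35 and 3 with library totals and FPKM and 31 and 3 with a minimum fold of 2. The members' median of 1.61 moved to 2.47 with library totals, to 2.11 with log2(FPKM + 1), filtered or not, and to 2.40 with log2(FPKM + 0.1), and lay between 1.52 and 1.77 with 1 library left out. Ubtf was the member whose direction changed: its -0.023 became 0.84 with library totals, 0.075 without a filter, 0.72 with log2(FPKM + 1), filtered or not, and 0.74 with log2(FPKM + 0.1), and -0.058 to 0.022 with 1 library left out. Of the other biogenesis genes, 50 instead of 83 were higher with a minimum fold of 2, and 1 instead of 6 was lower with that fold, library totals or FPKM. Of the ribosomal protein genes, 32 were higher; this became 1 with a minimum fold of 2, 74 with library totals, 74, 74 and 73 with FPKM (pseudocounts 1 and 0.1, and no filter), and 23 to 51 with 1 library left out, the highest without small intestine replicate 3. The 2 lower ones became 0 with a minimum fold, library totals or FPKM, 1 without a filter, 4 with DESeq2 and 1 to 5 with 1 library left out (1 without any 1 tumor, 4 and 5 without small intestine replicates 2 and 4). By FPKM 13 ratios passed too, but the Gar1 to Dkc1 difference of 0.04 became -0.72 and passed, and Nop58 to Fbl did not pass (0.13). The cause of these changes was not tested.

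With the replicate number as a block (replicate block), 34 members were higher and 3 lower with a median of 1.62, as were 82 and 6 other biogenesis genes and 31 and 2 ribosomal protein genes. Libraries of the same number did not deviate together (correlations -0.09, -0.14, 0.01 and -0.22). Pairs of unlike number ran from -0.13 to 0.24. Correlations of this size cannot show whether libraries of the same number came from 1 animal, which stays unknown. Leaving out 1 library from the ratios was added after seeing the data, with an exact permutation test of the absolute difference: 10 to 13 of 16 passed, beside 13, and the Gar1 to Dkc1 difference ran from -0.037 to 0.12. The libraries' depth did not limit the members, the lowest of which (Mycn, 0.690 CPM) stood above the 0.0518 CPM of 3 counts in that library. With 4 bulk libraries a tissue, cell makeup and level per cell cannot be told apart.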

Other observations

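RNA polymerase III makes transfer RNAs and the smallest ribosomal RNA and is another known output of MYC. Of 14 genes of the polymerase and its regulators, 8 were higher in tumor, 3 lower and 3 not called (median log2 difference 0.61), beside 38.9% of all tested genes called higher and 35.4% lower. Among the higher genes were the subunits Polr3d (1.94) and Polr3e (1.04). Maf1, the repressor of this polymerase, fell by 1.39 on the log2 scale, with 46.6 to 50.7 CPM in tumor and 119 to 138 CPM in small intestine, and the subunit Polr3c fell by 1.49. Both were also lower with library totals (-0.52 and -0.63), while the third, Polr3gl (-1.15), was not called there (-0.29). With library totals 11 of the 14 were higher and 2 lower.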
